A study of Mus musculus with 8 samples.

Results

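The 161 probes described here had a lower signal in the livers of restricted mice than in those of freely fed mice, in Npy-null animals and in animals with the intact gene alike. They were chosen by that difference, from the 36092 probes of a table of 36227 that were measured on each of the 8 arrays. A probe was kept if its mean log2 intensity over the arrays was 6.5 or more and all 4 restricted mice lay below all 4 freely fed mice. Its mean also had to be lower under restriction by at least 0.585 log2 units, which is 1.5-fold, in each genotype. The rule kept 0.446% of these probes, and 0.937% of the 17187 bright enough to be considered. The falls under restriction are therefore a description of what was selected, and no test is given for them.

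Liver RNA of 8 male mice was measured with one-colour bioarrays (CodeLink Mouse Whole Genome), each mouse on an array of its own. KO-DR mice were Npy-/- and were held from 12 weeks of age on dietary restriction (DR), a ration of 70% of the mean daily intake of freely fed mice. KO-AL mice were Npy-/- and were fed ad libitum (AL). WT-DR mice were Npy+/+ and received the restricted ration, and WT-AL mice were Npy+/+ and fed ad libitum. The age at the start was 12 weeks in every group. The background of all mice was mixed, from 129S-Npytm1Rpa/J as well as 129S6/SvEvTac, each group held 2 mice, and the titles write CR for DR. The deletion is carried in every tissue of the Npy-/- animals, so the comparison of genotypes is not limited to the liver. The labels do not give how long the mice had been restricted when the livers were taken.

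Neuropeptide Y is a peptide transmitter that is abundant in hypothalamic neurons and stimulates feeding, and its synthesis there rises when energy is short. Dietary restriction is a sustained reduction of food intake without malnutrition that lengthens life in many laboratory rodents. The liver is one of the organs that respond to it, since hepatocytes switch between storing fuel after meals and releasing glucose and ketone bodies between them. Liver genes known to be lowered when food is short include those of fatty acid and sterol synthesis.

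The table identifies a probe by its number, and neither the table nor the reference tables used here pair these numbers with genes. No gene, pathway or sequence can therefore be attached to a probe, and the level of Npy, the liver markers and the markers of other cell types were not analysed here. The genotype and tissue labels are thus taken as given. Only the pair of probes with the lowest averaged difference under restriction is given by number. Other probes of the set are given by their rank, where rank 1 has the largest fall averaged over both genotypes. In whole liver, fewer cells of a type and less RNA per cell cannot be told apart.

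An array had a median deposited intensity between 67.9 and 96.1 over all probes, and between 5.27% and 7.70% of its values did not exceed 7 intensity units, to which lower values were raised. None of the 161 probes had a value at that floor on any array, and the lowest deposited value among them was 24.1 intensity units. Levels below are log2 intensities after quantile normalization unless intensity units are named. Arrays of the same group correlated at 0.951 to 0.974 across the 25264 tested probes, and arrays of different groups at 0.939 to 0.977. With 2 mice a group, the number of arrays limits the precision of every value.

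Probe 31135 had the largest averaged fall. Its level was 5.62 and 6.34 in KO-DR mice, against 9.69 and 9.08 in KO-AL mice. In the other genotype it was 8.13 and 7.21 in WT-DR mice, against 8.68 and 9.12 in WT-AL mice. The KO-DR mice stood below all other mice, and WT-DR mouse 1 was the nearest of the DR mice to the AL mice. In deposited intensity units the KO-DR mice had 47.5 and 66.2, against 967 and 513 in KO-AL mice. The log2 difference between DR and AL was -3.40 ± 0.40 in KO and -1.23 ± 0.40 in WT (SE of the fit over all 8 arrays), a 10.6-fold and a 2.34-fold reduction.

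Probe 26628 ranked next and showed the opposite imbalance. It measured 11.30 and 10.21 in KO-DR mice, against 12.22 and 12.07 in KO-AL mice. It measured 8.47 and 9.70 in WT-DR mice, against 11.64 and 11.98 in WT-AL mice. Both WT-DR mice lay below both KO-DR mice, and the KO-AL mice lay slightly above the WT-AL mice. The log2 difference was -1.39 ± 0.47 in KO and -2.73 ± 0.47 in WT (SE). These are reductions of 2.63-fold and 6.62-fold.

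Over the 161 probes the averaged reduction ranged from 1.52-fold to 4.98-fold with a median of 1.93-fold. It was 2-fold or more in 68 probes, 3-fold or more in 11 and 4-fold or more in 2, which are the numbered probes above. Within KO the median reduction was 1.88-fold and the largest 10.6-fold, and within WT the median was 1.84-fold and the largest 6.62-fold. A reduction of 2-fold or more was found in both genotypes for 24 probes, in KO alone for 36, in WT alone for 32 and in neither for 69. Most of the set thus consisted of reductions of about the size of the threshold up to a little over 2-fold.

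**Figure D1:**
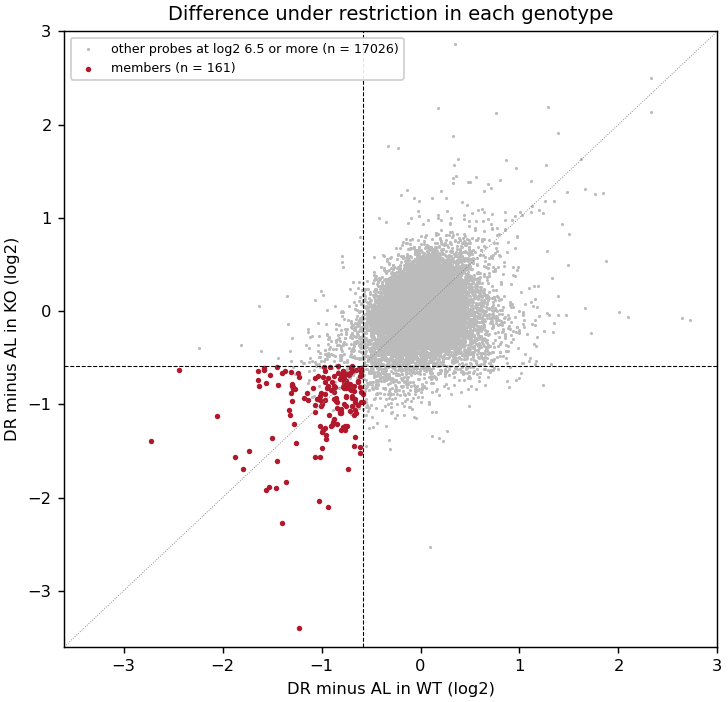
Difference between DR and AL in KO (vertical axis, log2) against that in WT (horizontal axis, log2) for the 17187 probes with a mean log2 intensity of 6.5 or more. Each point is a probe, the 161 members are red, dashed lines mark the threshold of -0.585 in each genotype and the dotted line marks equal differences; most members sit near the corner of the thresholds, and probe 31135 lies lowest.

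Among the 17187 probes bright enough, 664 were lower under DR by the threshold in KO and 428 in WT, and 208 were so in both. Of these 208, 161 also kept all DR mice below all AL mice, and 47 did not. With the signs turned, the same rule kept 56 probes that were higher under DR in both genotypes. A further 152 probes met the conditions on order and size but were too dim for the level threshold. Another 44 were short of the fold in KO alone and 108 in WT alone.

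The thresholds on fold and order cut through a continuum. The dimmest members had mean levels of 6.75 and 6.77, and the nearest probes that failed on level alone had 6.49 and 6.49. The smallest differences of members were -0.59 and -0.59 in KO, with -0.58 and -0.57 just outside. In WT they were -0.59 and -0.59, with -0.58 and -0.58 just outside. The gap between the lowest AL mouse and the highest DR mouse was as small as 0.0056 and 0.0073 log2 units inside the rule, and -0.0045 and -0.0049 just outside. Membership of the probes near the lines for fold and order can turn on changes far smaller than the difference between mice of a group.

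The gap between the diets was wider for most of the set. Its median was 0.32 log2 units, it was 0.5 or more in 35 probes and under 0.1 in 25, and the widest was 1.18. This widest gap belonged to the member of rank 7, at 7.44 and 6.79 in KO-DR mice against 9.28 and 8.73 in KO-AL mice. The same probe had 7.27 and 6.99 in WT-DR mice against 8.62 and 8.72 in WT-AL mice. Its log2 difference between KO and WT was -0.02 in DR mice and 0.34 in AL mice.

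The mean levels of the restriction-lowered probes ran from 6.75 to 13.20 with a median of 8.66. The rule removed probes below 6.5, so these levels are a description, and they are no measure of abundance between probes. In deposited units the median of their mean intensities was 454, and the highest was 9742. The level was 10 or more in 40 of the probes and 12 or more in 3. The brightest, of rank 120, had 12.79 and 12.63 in KO-DR mice against 13.42 and 13.64 in KO-AL mice, and 12.85 and 12.94 in WT-DR mice against 13.54 and 13.76 in WT-AL mice.

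The mice of a diet were not equally far from the other diet. Relative to each probe's mean over the 8 arrays, the median deviation over the 161 probes was -0.28 and -0.49 log2 units in KO-DR mice 1 and 2, against 0.52 and 0.54 in KO-AL mice 1 and 2. It was -0.53 and -0.45 in WT-DR mice 1 and 2, against 0.34 and 0.54 in WT-AL mice 1 and 2. KO-DR mouse 1 and WT-AL mouse 1 thus lay nearest to the opposite diet. KO-DR mouse 1 was the highest of the 4 DR mice in 74 probes, against 28 for KO-DR mouse 2, 25 for WT-DR mouse 1 and 34 for WT-DR mouse 2. WT-AL mouse 1 was the lowest of the 4 AL mice in 82 probes, against 37 for KO-AL mouse 1, 24 for KO-AL mouse 2 and 18 for WT-AL mouse 2.

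**Figure D2:**
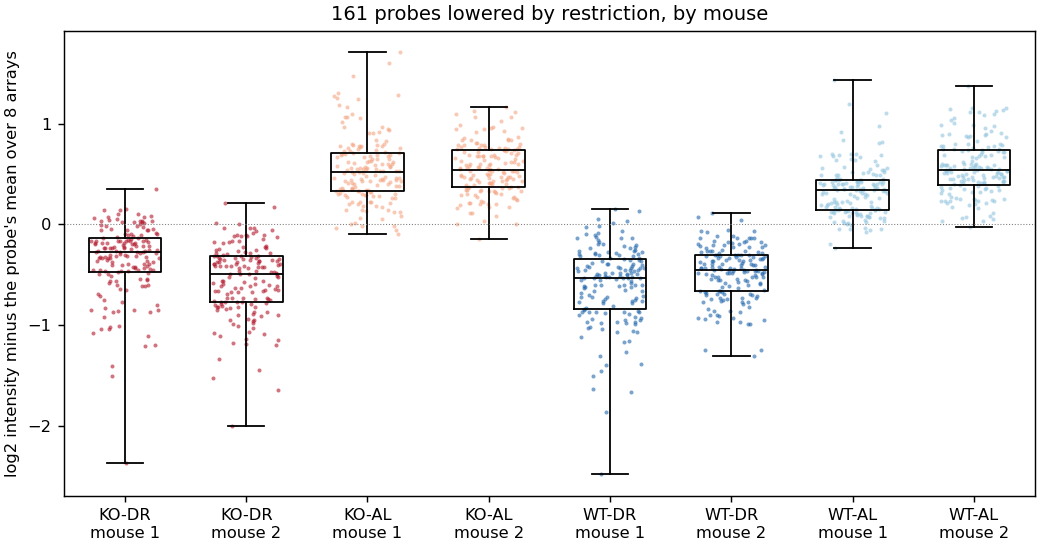
Log2 intensity of each of the 161 members minus its mean over the 8 arrays (vertical axis, log2), for each mouse. Points are probes, boxes span the quartiles with the median as a line and whiskers reach the extremes; the medians run from -0.28 to -0.53 in DR mice and from 0.34 to 0.54 in AL mice, and the rule forces the separation of the diets.

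The order of the mice within a group did not enter the rule by itself. WT-AL mouse 1 was higher than WT-AL mouse 2 in 32 of the 161 probes (19.9%), where the share over the 17187 bright enough probes was 40.8%. KO-DR mouse 1 was higher than KO-DR mouse 2 in 107 probes (66.5%), against 48.4% of the bright enough probes. For KO-AL mice the share was 41.0% of the set and 47.5% of those probes, and for WT-DR mice it was 37.3% and 49.4%. The share of the set thus stood farthest from that of the bright enough probes in WT-AL and KO-DR mice, and nearest to it in KO-AL mice. The median difference between the mice of a group was 0.26 log2 units for KO-DR, 0.30 for KO-AL, 0.28 for WT-DR and 0.28 for WT-AL, and over the bright enough probes it was 0.21, 0.18, 0.19 and 0.22. The set was therefore somewhat more variable between mice of the same group than the probes it was drawn from. A rule that keeps large differences between means of 2 mice can itself favour such probes, so this is a description. What the mice of a group differed in was not tested.

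The rule also sets what limma's fit, which was run over all 25264 tested probes, gives for DR. For DR against AL averaged over genotype, 3 of the 161 probes passed a Benjamini-Hochberg adjusted p of 0.05, where 0.0198% of all tested probes did so in either direction and 0.0158% as lower. Nothing is read from this count, because the same contrast chose the probes. The 3 were those of rank 5, 10 and 22. The member of rank 5 had 8.85 and 9.07 in KO-DR mice against 10.90 and 10.84 in KO-AL mice, and 9.80 and 9.82 in WT-DR mice against 11.36 and 11.38 in WT-AL mice. For that of rank 10 the levels were 6.44 and 6.44 in KO-DR mice against 8.43 and 8.10 in KO-AL mice, and 6.99 and 7.04 in WT-DR mice against 8.16 and 8.58 in WT-AL mice. That of rank 22 measured 6.95 and 6.87 in KO-DR mice against 8.01 and 8.05 in KO-AL mice, and 6.39 and 6.49 in WT-DR mice against 7.71 and 7.80 in WT-AL mice. The mice of a group lay closer together at rank 5 and 22 than the AL mice did at rank 10. Without any one mouse none of the 161 passed, in a fit with fewer residual degrees of freedom.

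Within a genotype no probe of the set passed for DR against AL by limma, as no tested probe did. An unadjusted p under 0.05 was reached by 143 of the 161 in KO, where 8.24% of all tested probes reached it, and by 148 in WT, where 5.53% did. These counts too follow from the choice of the probes. Without WT-AL mouse 1, 5 of the 161 passed the adjusted threshold in WT, where 0.574% of all tested probes did.

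The falls in both genotypes were next set side by side, to see how evenly the set was lowered. The DR effect in KO minus that in WT had a median of -0.0060 log2 units over the 161 probes and 0.016 over all tested probes. It was negative, that is with the larger fall in KO, in 86 probes and positive in 75. In 79 probes the falls lay within 0.25 log2 units of each other and in 132 within 0.5. The median size of the difference between the DR effects was 0.26 log2 units for the set and 0.21 for the bright enough probes. The median SE of that difference was 0.35 log2 units for the set and 0.29 for those probes. How far the larger SE enters the sizes was not tested, so no evenness of the set is read from them. This difference is built from the contrasts of the rule, which by requiring a fall in both removes probes with a one-sided response, so it is a description. By limma none of the 161 probes and none of all tested probes passed an adjusted p of 0.05 for it, and 6 of the 161 had an unadjusted p under 0.05, where 4.75% of all tested probes did. The 95% confidence interval of the difference held 0 in 155 probes, and its median SE of 0.35 log2 units leaves room for sizeable differences in single probes.

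A difference of 1 log2 unit or more was found in 5 probes, 3 with the larger fall in KO and 2 with the larger fall in WT. Both numbered probes were among them. For probe 31135 it was -2.18 (95% confidence interval -3.50 to -0.85) and for probe 26628 it was 1.33 (interval -0.24 to 2.91). The largest in favour of WT was that of rank 12, at 8.24 and 8.28 in KO-DR mice against 8.70 and 9.09 in KO-AL mice, and at 6.68 and 7.10 in WT-DR mice against 9.17 and 9.50 in WT-AL mice. The DR effects were -0.63 in KO and -2.44 in WT, a difference of 1.81, with an interval from 1.04 to 2.57 and an adjusted p = 0.971 by limma. The intervals are not corrected for the choice of extreme probes. The member of rank 15 had 8.84 and 9.16 in KO-DR mice against 11.14 and 11.06 in KO-AL mice, and 10.14 and 10.22 in WT-DR mice against 10.73 and 11.50 in WT-AL mice. Its levels in AL mice overlapped between the genotypes, and its levels in DR mice did not.

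Genotype was then compared within the set. Averaged over feeding, it does not enter the fold thresholds of the rule, although the condition on the order of the mice limits how far the genotypes can lie apart. The comparison asks whether probes lowered by DR were also at another level without Npy. By limma none of the 161 probes passed an adjusted p of 0.05 for KO against WT averaged over feeding, and neither did any tested probe. An unadjusted p under 0.05 was reached by 42 of the 161 (26.1%), where 6.73% of all tested probes and 5.83% of the bright enough ones reached it. Of the 42, 30 were higher in KO, where 3.76% of all tested probes were, and 12 were lower in KO, where 2.97% were. The median log2 difference between KO and WT was 0.096 over the 161 probes and -0.0029 over all tested probes. Single mice of a group differed with an SD of 0.11 between their medians over the set. That SD describes single mice and is not the error of a difference between genotypes. The median difference between KO and WT was 0.039 without WT-AL mouse 1, 0.15 without WT-AL mouse 2, 0.049 without KO-DR mouse 1 and 0.17 without KO-DR mouse 2. With no normalization between arrays it was -0.0024, where that over all tested probes was -0.10. The averaged difference was 0.585 log2 units or more in size in 17 of the 161 (10.6%) and in 1.38% of the bright enough probes. The set also had a wider spread, with a median SE of this difference of 0.175 log2 units against 0.145 for those probes. How far the wider spread enters these shares was not tested, so no effect of genotype on the set is read from them. The count of 42 was 25 without WT-DR mouse 1, where 4.41% of all tested probes reached an unadjusted p under 0.05.

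The genotypes were also compared within each diet. These differences are built in part from the DR effects that the rule used, and the order condition bounds them, so they are a description and nothing is read from their counts. For KO against WT in DR, 43 of the 161 had an unadjusted p under 0.05 by limma (26.7%), where 3.59% of all tested probes and 2.66% of the bright enough ones did. Of these, 28 were higher in KO-DR mice, where 1.97% of all tested probes were, and 15 were lower, where 1.62% were. For KO against WT in AL, 14 of the 161 had an unadjusted p under 0.05 (8.70%), where 7.72% of all tested probes and 6.5% of the bright enough ones did. No probe of the set, nor any tested probe, had an adjusted p under 0.05 within a diet by limma. The median size of the difference was 0.26 log2 units in DR mice for the set, against 0.14 for the bright enough probes. In AL mice it was 0.21 for the set and 0.18 for those probes. A difference of 0.585 log2 units or more in size was found in DR mice for 23.0% of the set and 2.58% of those probes, and in AL mice for 7.45% and 5.77%.

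**Figure D3:**
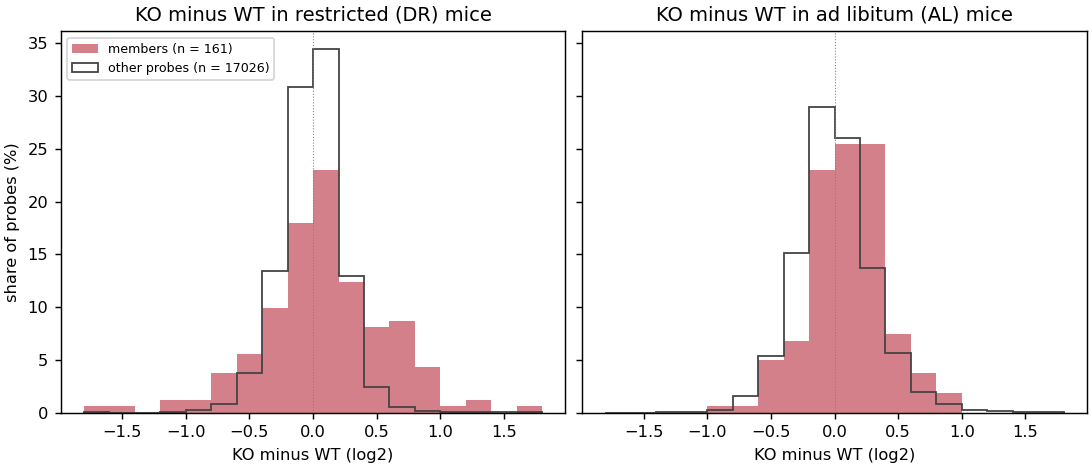
Difference between KO and WT (horizontal axis, log2) in restricted mice (left) and in mice fed ad libitum (right), as the share of probes in bins of log2 difference (vertical axis, %). Filled bars are the 161 members and the line the other probes with a mean log2 intensity of 6.5 or more, with values past the ends drawn in the outermost bin. The median size was 0.26 for the members against 0.14 for all bright enough probes in DR mice, and 0.21 against 0.18 in AL mice. The median SE was 0.25 against 0.21 under each diet. The rule bounds these differences, so they are a description.

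The count of 43 in DR mice depended on single mice. It was 18 without WT-DR mouse 1, where 2.37% of all tested probes reached an unadjusted p under 0.05, and 26 without KO-DR mouse 2, where 3.17% did. Without WT-DR mouse 2 it was 34, where 4.37% did, and without KO-DR mouse 1 it was 31, where 7.32% did. In the values with no normalization between arrays it was 28, where 8.50% of all tested probes did. The count in AL mice was 9 without WT-AL mouse 1, where 10.4% of all tested probes did, and 9 without either KO-DR mouse, where 8.08% did. The difference between the genotype effects of the diets is the difference of the DR effects given above, for which no probe passed. A larger difference in DR mice than in AL mice is thus not shown for any single probe.

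By order alone, both KO-DR mice lay above both WT-DR mice in 53 of the 161 probes (32.9%), where 18.5% of the bright enough probes did so. Both KO-DR mice lay below both WT-DR mice in 31 (19.3%), against 14.8% of those probes. Both KO-AL mice lay above both WT-AL mice in 41 (25.5%), against 17.2%, and below them in 13 (8.07%), against 21.8%. In 29 probes (18.0%) the KO mice were above the WT mice under each diet without overlap, against 4.2% of the bright enough probes, and in 5 (3.11%) they were below under each diet, against 3.19%. In 2 probes (1.24%) the KO mice were above under DR and below under AL, against 2.3%, and in 0 the reverse, against 2.46%. The rule demands that AL mice lie above DR mice, so no probe of the set can have all 4 KO mice on one side of all 4 WT mice. These counts are built from values that the rule used, so they too are a description and nothing is read from them.

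The clearest genotype differences of the set, by limma's unadjusted p averaged over feeding, were in the members of rank 81, 5, 95, 94 and 33. The member of rank 81 had 8.44 and 8.55 in KO-DR mice against 7.79 and 7.95 in WT-DR mice, and 9.45 and 9.72 in KO-AL mice against 8.62 and 8.74 in WT-AL mice. Its level in KO-DR mice was close to that in WT-AL mice. The averaged log2 difference was 0.76, with a 95% interval from 0.47 to 1.05 and an adjusted p = 0.559 by limma. At rank 94 the levels were 6.93 and 6.91 in KO-DR mice against 6.26 and 6.52 in WT-DR mice, and 7.86 and 8.03 in KO-AL mice against 7.13 and 7.17 in WT-AL mice. At rank 33 they were 9.07 and 9.39 in KO-DR mice against 8.43 and 8.83 in WT-DR mice, and 10.56 and 10.45 in KO-AL mice against 9.66 and 9.57 in WT-AL mice. These probes were higher in all KO mice than in all WT mice of the same diet.

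The members of rank 5 and 95 were lower in KO mice under each diet. That of rank 5, whose values are given above, differed by -0.67 (interval -0.94 to -0.41, adjusted p = 0.559 by limma). That of rank 95 had 7.04 and 7.41 in KO-DR mice against 8.10 and 8.01 in WT-DR mice, and 8.16 and 8.28 in KO-AL mice against 8.78 and 8.87 in WT-AL mice. It differed by -0.72 (interval -1.02 to -0.42, adjusted p = 0.559 by limma). Its WT-DR mice lay only a little under its KO-AL mice. The probes were picked for a small p, and the intervals are not corrected for that choice. For the numbered probes the averaged difference between KO and WT was -0.61 ± 0.28 (probe 31135) and 1.00 ± 0.33 (probe 26628), each with an adjusted p of 0.722 by limma.

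**Figure D4:**
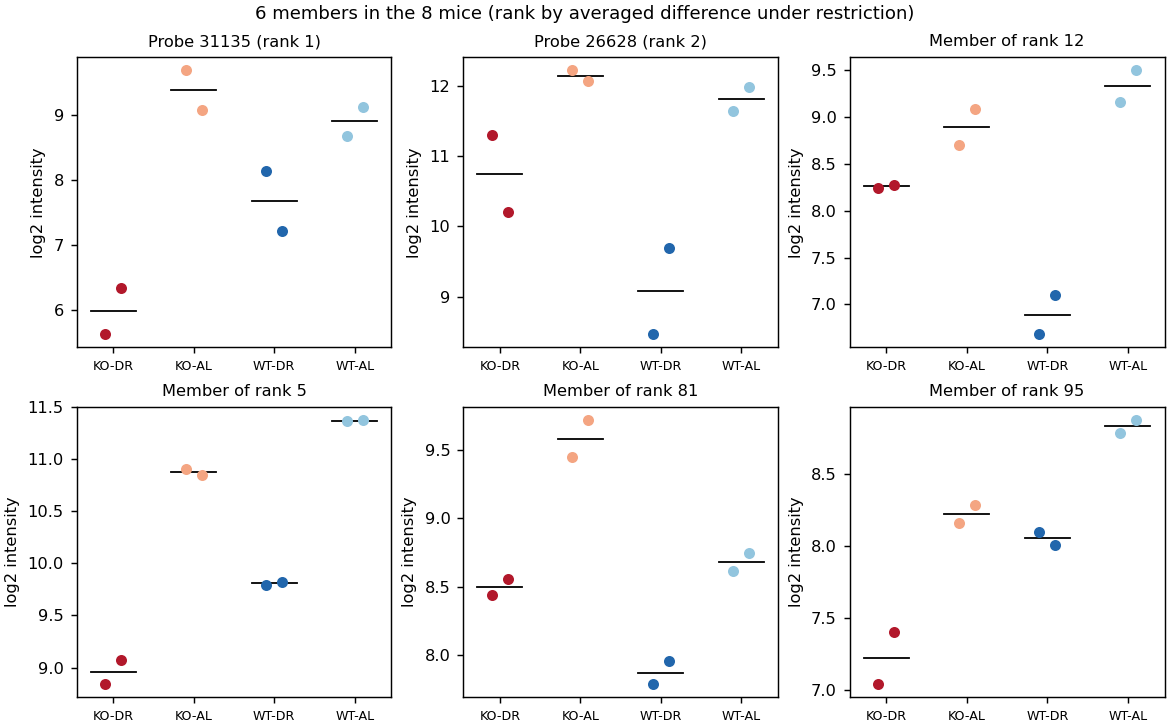
Log2 intensity (vertical axis, a separate range in each panel) of 6 members in the 8 mice, by group. Points are mice and bars the group means; probe 31135 is lowest in KO-DR mice, probe 26628 and the member of rank 12 are lowest in WT-DR mice, and the members of rank 5, 81 and 95 differ between the genotypes under each diet.

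The place of the probes in the table's numbering was not used by the rule. The 161 probes were found in all 10 blocks of equal length into which the numbers were split, with between 10 and 26 in each. Block 10, with the highest numbers, held 26, block 8 held 24 and block 9 held 20, and the other blocks held 10 to 17. Per 100 bright enough probes these blocks held 1.23, 1.09 and 1.05 members, and the others between 0.752 and 0.894. The closest members in the numbering were 4 pairs with numbers 2 apart. The labels do not say what these numbers mean on the array.

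**Figure D5:**
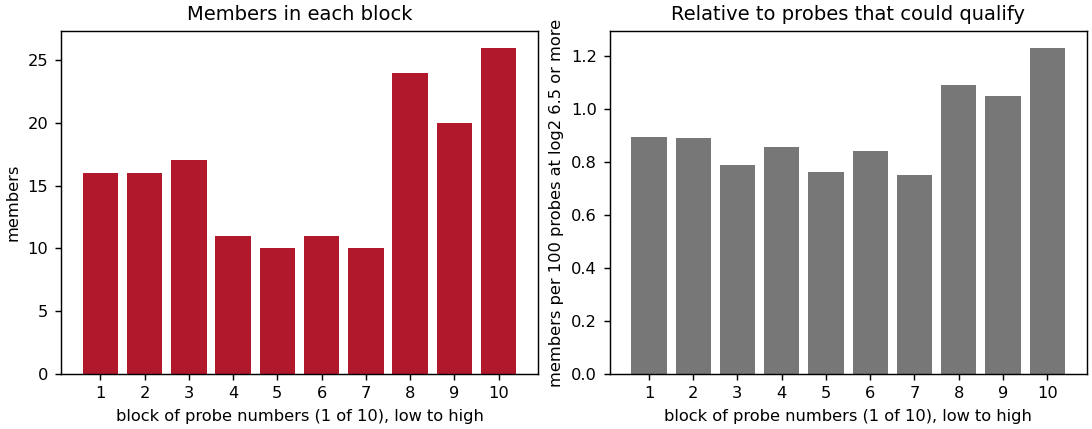
Number of members in each of 10 blocks of the probe numbers (left) and members per 100 probes with a mean log2 intensity of 6.5 or more in that block (right). The horizontal axis gives the blocks from low to high numbers; the 3 highest blocks hold 24, 20 and 26 members and the highest shares, 1.09, 1.05 and 1.23 per 100.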

How the data were processed

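The authors deposited linear intensities, 1 for each probe on each array, from biotin-labelled cRNA hybridised for 18 hours, per the labels' protocols. The sources used here do not state background correction or scaling. Quality tags the labels describe were not used here. The code -9999 was read as missing, and lowest deposited values reach -16.7.

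From these intensities, values below 7 were set to 7, log2 was taken and the arrays were quantile normalized, which would hide a common shift of 1 group. Groups came from the titles. The members and gene lists were chosen with earlier results of these data known. The lists of pathways and cell types could not be matched to probe numbers. With no gene names, the naming rule gives by number the 2 members with the lowest averaged DR minus AL; members cited by rank were chosen after their values were seen.

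Group means were fitted with limma 3.58.1 (R 4.3.3) to 25264 probes, those with a mean above the 30th percentile. Two-sided p-values were adjusted over all tested probes (Benjamini-Hochberg, threshold 0.05). The code of the fit was checked on simulated data with planted genotype differences. That check does not show how many real differences the fit would miss in these mice. Figures were drawn with matplotlib 3.10.9. Alternatives covered normalization, filter, floor, prior variance, array weights, replicate block, thresholds and leaving out each mouse. The labels give separate mice. Replicate numbers were not used as pairs in the main fit. Over the pairs of groups, deviations of same-numbered mice correlated between -0.245 and 0.282 across all tested probes. Across the 161 probes they correlated between -0.334 and 0.0906. With 2 mice a group, these values cannot decide whether same-numbered mice were paired.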

Additional observations from a re-analysis of the deposited data

Results flagged for a closer look

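In 2 of the 161 probes the genotypes differed in opposite directions under the diets with no overlap between mice: KO mice lay above WT mice under DR and below them under AL. The share, 1.24%, was below the 2.3% of the bright enough probes. One is the member of rank 12, whose values are given above, with DR effects that differed by 1.81 log2 units (KO minus WT, adjusted p = 0.971 by limma). The other, of rank 58, had 7.84 and 7.64 in KO-DR mice against 7.19 and 7.50 in WT-DR mice, and 8.27 and 8.42 in KO-AL mice against 8.75 and 8.84 in WT-AL mice. Its DR effects differed by 0.84 log2 units (95% interval 0.23 to 1.45, adjusted p = 0.971 by limma), so the difference did not pass over all probes in either. Groups of 2 mice are too small for a check of single outlying mice.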

How the results depend on the processing

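The rule kept 161 probes. It kept 313 with no level threshold, all 161 among them, and 24 with a fall of 1 log2 unit or more in both genotypes. With no normalization between arrays it kept 188, of which 130 were among the 161, with median scaling 179 (147 shared) and with a pseudocount of 16 it kept 156 (149 shared). Leaving out each mouse gave 144 to 235, with 127 to 155 shared.

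For DR averaged over genotype, 3 of the 161 passed. The number was 0 with no normalization, with no filter on dim probes, under the replicate block, under a replicate block that crossed the numbers of DR mice (chosen after seeing the data) and without any one mouse. It was 10 with median scaling (0.0554% of all tested probes passed), 28 with the pseudocount (0.17%), 30 at an adjusted p of 0.10 (0.178%), 77 with the filter at the 50th percentile (0.726%) and 110 with an intensity trend and robust prior (1%), so calls rose over all probes too. For DR in KO it was 1 with the stricter filter (0.00554%), 1 with the pseudocount (0.00396%) and 24 with trend and robust prior (0.178%), and for DR in WT 5 with trend and robust prior (0.0435%) and 0 to 5 on leaving out a mouse. None of the 161 passed for genotype, or for KO minus WT in the DR effect, under any alternative run.

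The unadjusted counts for genotype, whose alternatives were added after seeing the data, ran on leaving out a mouse from 25 to 39 averaged, 18 to 39 in DR mice and 9 to 16 in AL mice. The share of all tested probes at an unadjusted p under 0.05 moved between those fits too, so nothing is read from these ranges alone. In DR mice the count was 28 with no normalization (8.5% of all tested probes), and in AL mice 9 with no filter (7.06%). The median difference between KO and WT averaged over feeding was 0.039 to 0.17 on leaving out a mouse. The median difference of the DR effects was -0.36 with no normalization, where that over all tested probes was -0.33, and -0.13 to 0.072 on leaving out a mouse. Among the numbered probes no sign turned. Probe 31135 passed for averaged DR in 4 alternatives with all mice and probe 26628 in 1. The replicate block changed no other call. With no detection tags, signal over background could not be judged per probe. The causes of these changes were not tested.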
